A study of Mus musculus with 13 samples.

Results

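The 10 genes described here encode granule proteins, surface proteins and transcription factors that are best known from granulocytes and monocytes, and they were read in RNA sequencing of lymphoid progenitors. Mpo, Elane, Prtn3, Ctsg, Lyz2, Ms4a3, Cebpa, Cebpb, Itgam and Gfi1 were chosen by name, as the rows of the count tables whose RefSeq identifier maps to these mouse symbols. All 10 were found among 24072 identifiers, with 1 row each. The libraries came from common lymphoid progenitors (CLP), marrow cells that give rise to lymphocytes, of wild-type C57BL/6 mice. Flow cytometry for the surface proteins Ly6D and Gfra2 split them into Ly6D+Gfra2+ cells (3 libraries), Ly6D+Gfra2- cells (4 libraries) and Ly6D-Gfra2- cells (6 libraries). No treatment or altered gene distinguishes the groups, which are defined by the sort. They also differ in the mix of library prefixes given below. The age and sex of the mice, the number of animals or cells behind each library and the other antibodies of the sort are not given in the sources used here. Because nothing says that replicates are separate animals, p-values measure the spread between these libraries, which may be technical. A letter, P or T, leads each library name, and its meaning is not stated. Prefix T is on every Ly6D+Gfra2+ library, on replicates 5 and 6 of Ly6D+Gfra2- and on replicates 4, 5 and 6 of Ly6D-Gfra2-. The others have prefix P.

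In marrow, granulocyte and monocyte precursors make azurophil granule proteins early, at the promyelocyte stage. PU.1 (Spi1) and C/EBP alpha (Cebpa) drive that programme, C/EBP beta supports it under demand, and the repressor Gfi1 favours the neutrophil over the monocyte fate. Lymphoid progenitors descend from multipotent cells in which some of these genes are transcribed at low levels, and Gfi1 also acts within lymphoid cells. Ly6D marks the step of lymphoid progenitors toward the B lineage, while Gfra2 binds neurturin, a growth factor, and signals with the kinase Ret.

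PU.1 is known to bind promoters of granule genes and of Itgam, so the 250 bases upstream of the start are shown for 4 of the genes. Mpo and Itgam are the genes that edgeR called lower, Elane is a patchily detected granule protease, and Gfi1 followed another order of groups. The sequences come from RefSeq promoter windows on GRCm38.p6 (mm10), run 5′ to 3′ on the gene's strand, and have the purine core GAGGAA of PU.1 sites, on either strand, in capitals. Their positions are chr11:87793534-87793783 (plus strand) for Mpo, chr10:79886062-79886311 (plus strand) for Elane, chr7:128062390-128062639 (plus strand) for Itgam and chr5:107725806-107726055 (minus strand) for Gfi1, at the outermost of its listed starts.
Mpo: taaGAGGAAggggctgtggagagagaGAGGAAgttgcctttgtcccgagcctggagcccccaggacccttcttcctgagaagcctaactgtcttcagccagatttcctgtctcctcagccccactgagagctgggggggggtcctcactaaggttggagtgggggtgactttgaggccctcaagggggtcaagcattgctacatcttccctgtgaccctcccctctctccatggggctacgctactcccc
Elane: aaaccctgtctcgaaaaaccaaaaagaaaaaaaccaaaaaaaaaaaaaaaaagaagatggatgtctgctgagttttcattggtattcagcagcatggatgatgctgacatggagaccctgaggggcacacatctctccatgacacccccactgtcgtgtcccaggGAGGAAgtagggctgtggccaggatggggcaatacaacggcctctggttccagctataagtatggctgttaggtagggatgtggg
Itgam: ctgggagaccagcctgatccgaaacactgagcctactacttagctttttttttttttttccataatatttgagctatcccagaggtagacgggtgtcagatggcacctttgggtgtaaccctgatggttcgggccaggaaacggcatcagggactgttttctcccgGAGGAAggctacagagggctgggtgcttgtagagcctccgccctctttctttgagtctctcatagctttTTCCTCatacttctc
Gfi1: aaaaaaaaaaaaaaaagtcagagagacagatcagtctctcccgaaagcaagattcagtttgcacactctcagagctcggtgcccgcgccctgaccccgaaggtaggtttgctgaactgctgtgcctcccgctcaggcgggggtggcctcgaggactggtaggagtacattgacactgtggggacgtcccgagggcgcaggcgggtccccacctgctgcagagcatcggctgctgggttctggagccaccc

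Over the full windows, from 250 bases before the start to 50 after it, GAGGAA was present on either strand in 6 of the 10 genes, namely Mpo, Elane, Prtn3, Ctsg, Ms4a3 and Itgam. Of all 32851 mouse promoter windows of this length, 28.3% held it. Itgam held 3 copies and Mpo held 2, and the third copy of Itgam lies downstream of the start, outside the sequence printed. A Myb site, TAACNG, was present in 2 genes, Mpo and Elane, against 23.3% of all windows, and a C/EBP site, TTGCNNAA, in 2, Ms4a3 and Gfi1, against 10.8%. Both were searched on both strands. These matches describe letters and not binding.

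Libraries held 6892728 to 23705975 counts over genes and 10837 to 13969 genes with at least 1 count. Levels are given as CPM, read counts scaled to library size with TMM, and 3 counts correspond to 0.133 to 0.389 CPM. The 8 genes of a CLP list (Il7r, Flt3, Kit, Dntt, Rag1, Cd34, Notch1 and Cd93) summed to 7911 CPM or more in every library. Dntt, at group means of 3479 to 3749 CPM, and Cd93, at 1908 to 2594 CPM, carried much of it. Single genes differed between groups. In Ly6D+Gfra2+ against Ly6D-Gfra2-, edgeR called 3 of the 8 higher and 1 lower, beside 1.39% of all genes. Rag1 averaged 1309 against 93.4 CPM and Cd34 63.1 against 453 CPM there. Gfra2 separated the groups as labelled, with 287 to 515 CPM in Ly6D+Gfra2+ libraries, at most 14.7 CPM in Ly6D+Gfra2- libraries and at most 5.50 CPM in Ly6D-Gfra2- libraries. Ly6d did so with an exception. It lay between 171 and 283 CPM in Ly6D+Gfra2+ and between 158 and 507 CPM in Ly6D+Gfra2- libraries, but reached 213 CPM in replicate 3 of the Ly6D-Gfra2- label, whose other 5 libraries had at most 8.30 CPM. Ly6D-Gfra2- replicate 5 stood apart in mature neutrophil markers, which summed to 600.8 CPM there and to at most 60.0 CPM in any other library. Values without them are given beside several of the results they bear on.

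Mpo and Lyz2 made up most of the signal. Per kilobase of transcript, Mpo averaged 87.1 CPM in Ly6D+Gfra2+ cells, 149 CPM in Ly6D+Gfra2- cells and 288 CPM in Ly6D-Gfra2- cells, and Lyz2 averaged 68.2, 39.8 and 95.5 CPM in the same order. Itgam lay at 2.82 to 19.9 and Gfi1 at 3.30 to 15.98 CPM per kilobase over the 3 group means, and the other 6 genes at or below 9.31. The order of these 8 differed between groups: Cebpb at 4.44 and Elane at 3.64 exceeded Itgam in Ly6D+Gfra2+, and Elane at 9.31 exceeded Gfi1 at 8.01 in Ly6D-Gfra2- cells. Summed over the 10 genes, the level was 248 to 479 CPM in Ly6D+Gfra2+ libraries, 480 to 641 CPM in Ly6D+Gfra2- libraries and 668 to 1381 CPM in Ly6D-Gfra2- libraries. Of the 10 genes, 6 to 8 had a count in each Ly6D+Gfra2+ library, 7 to 9 in each Ly6D+Gfra2- library and 8 to 10 in each Ly6D-Gfra2- library. Detection over all genes rose in the same order of groups. It was 10837 to 12369, 11636 to 13364 and 12904 to 13969 genes per library, so the rise is not particular to the 10.

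**Figure D1:**
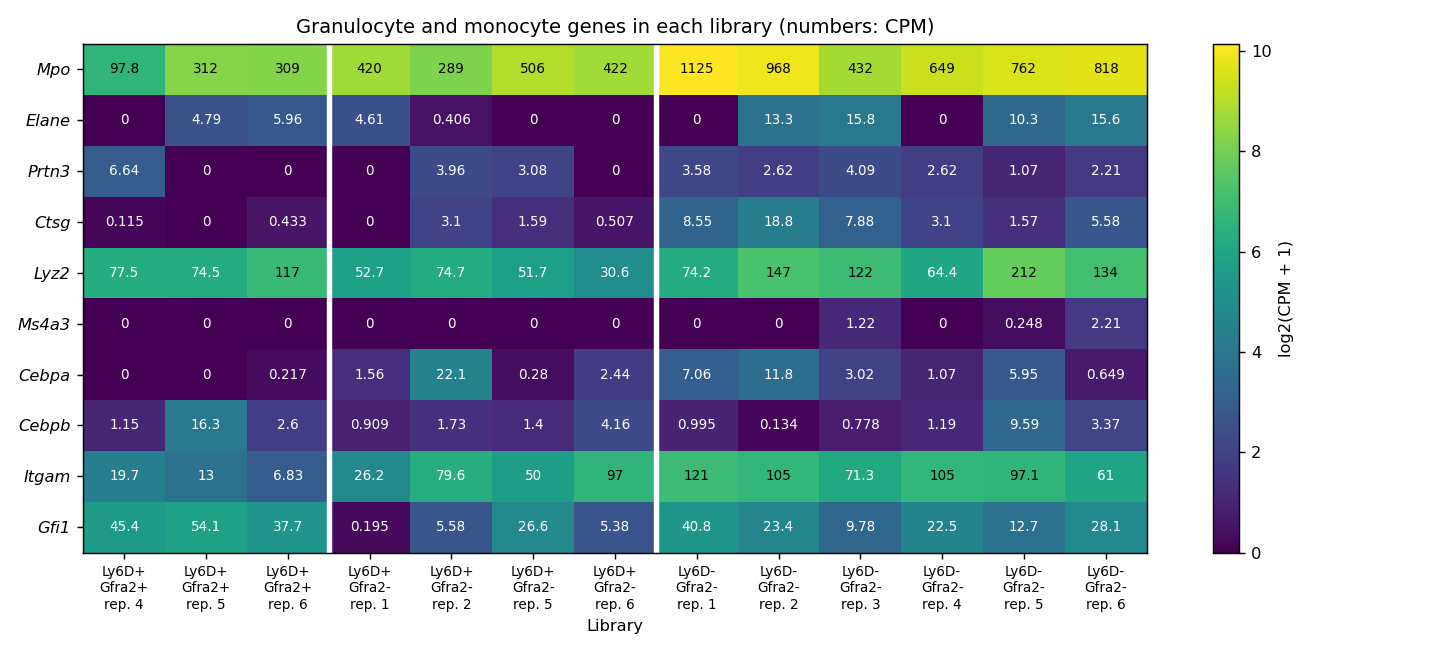
Level of each of the 10 genes (rows) in each library (columns), coloured by log2(CPM + 1) with the CPM printed in each cell and white lines between the 3 sorted groups. The lowest Mpo value, 97.8 CPM, was in a Ly6D+Gfra2+ library and the highest, 1125 CPM, in a Ly6D-Gfra2- library, and Ms4a3 was at 0 in 10 of the 13 libraries.

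Mpo encodes myeloperoxidase, the granule enzyme that makes hypochlorous acid (NM_010824, chromosome 11, 87793784 to 87804412). It had 97.8, 312 and 309 CPM in the Ly6D+Gfra2+ libraries, replicates 4, 5 and 6. In Ly6D+Gfra2- replicates 1, 2, 5 and 6 it had 420, 289, 506 and 422 CPM. In the 6 Ly6D-Gfra2- libraries it ran from 432 CPM over a median of 790 CPM to 1125 CPM. The 3 group means were 239.5 ± 122.7 CPM (SD, n = 3), 409 ± 89.5 CPM (n = 4) and 792 ± 242 CPM (n = 6). All 3 Ly6D+Gfra2+ libraries lay below all 6 Ly6D-Gfra2- libraries. The lowest Ly6D-Gfra2- library was replicate 3, the one with Ly6d. Without it the Ly6D-Gfra2- level was 864 ± 186 CPM (n = 5), and all 4 Ly6D+Gfra2- libraries lay below all 5.

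Mpo fell in Ly6D+Gfra2+ against Ly6D-Gfra2- cells, by 1.75 on the log2 scale (SE 0.38; edgeR quasi-likelihood test, adjusted p = 0.0325 over 12722 genes). Ly6D+Gfra2- lay between the other groups, with a log2 fold change of -0.96 (SE 0.31; edgeR adjusted p = 0.807) against Ly6D-Gfra2- and with Ly6D+Gfra2+ at -0.79 (SE 0.38; edgeR adjusted p = 0.383) against it, neither of which passed. The -0.79 became -0.42 without Ly6D+Gfra2+ replicate 4. In these sorted pools, fewer cells with the transcript and less transcript per cell cannot be told apart. With prefix T alone, the fold change of Ly6D+Gfra2+ against Ly6D-Gfra2- was -1.64 and the call was lost (edgeR adjusted p = 0.0994), as it was with limma voom with sample quality weights (adjusted p = 0.0870) and with only these groups in the fit (edgeR adjusted p = 0.112). Without replicate 6 of Ly6D+Gfra2- the adjusted p was 0.0537, and the call was also lost without replicate 4, 5 or 6 of Ly6D-Gfra2- (0.0638, 0.0886 and 0.0800), with log2 fold changes between -1.86 and -1.74. Leaving out Ly6D-Gfra2- replicates 3 and 5 together gave -1.86 (adjusted p = 0.0552). The lncRNA gene Gm34064 overlaps Mpo and has no row of its own, and the counting strand is not stated, so reads of the pair cannot be told apart.

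Lyz2 encodes the lysozyme of macrophages and granulocytes (NM_017372, chromosome 10, 117277541 to 117282272). Its levels were 77.5, 74.5 and 117 CPM in Ly6D+Gfra2+ replicates 4, 5 and 6. They were, in replicates 1, 2, 5 and 6 of Ly6D+Gfra2-, 52.7, 74.7, 51.7 and 30.6 CPM, and in Ly6D-Gfra2- libraries 64.4 to 212 CPM with a median of 128 CPM. The order thus differed from that of Mpo, with Ly6D+Gfra2- lowest, and the ranges of all 3 groups overlapped. Its log2 fold change in Ly6D+Gfra2- against Ly6D-Gfra2- was -1.28 (SE 0.37; edgeR unadjusted p = 0.00322, adjusted p = 0.807), with -1.73 in prefix T and -0.84 in prefix P. The highest library was Ly6D-Gfra2- replicate 5, which also held the neutrophil markers. Without it the fold change was -1.04 and the Ly6D-Gfra2- mean 108 ± 37.0 CPM (n = 5), against 125.7 ± 53.8 CPM (n = 6) with it. Ly6D+Gfra2+ cells averaged 89.7 ± 23.8 CPM (n = 3), and their log2 fold changes were 0.83 (SE 0.47; edgeR adjusted p = 0.465) against Ly6D+Gfra2- and -0.44 (SE 0.42; edgeR adjusted p = 0.689) against Ly6D-Gfra2-. The -0.44 became -0.03 without Ly6D-Gfra2- replicate 5 and -0.68 without Ly6D+Gfra2+ replicate 6, and the 0.83 became 0.52 without Ly6D+Gfra2- replicate 6. Lyz2 has a close paralog, Lyz1, and how reads shared by both were counted is not stated.

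**Figure D2:**
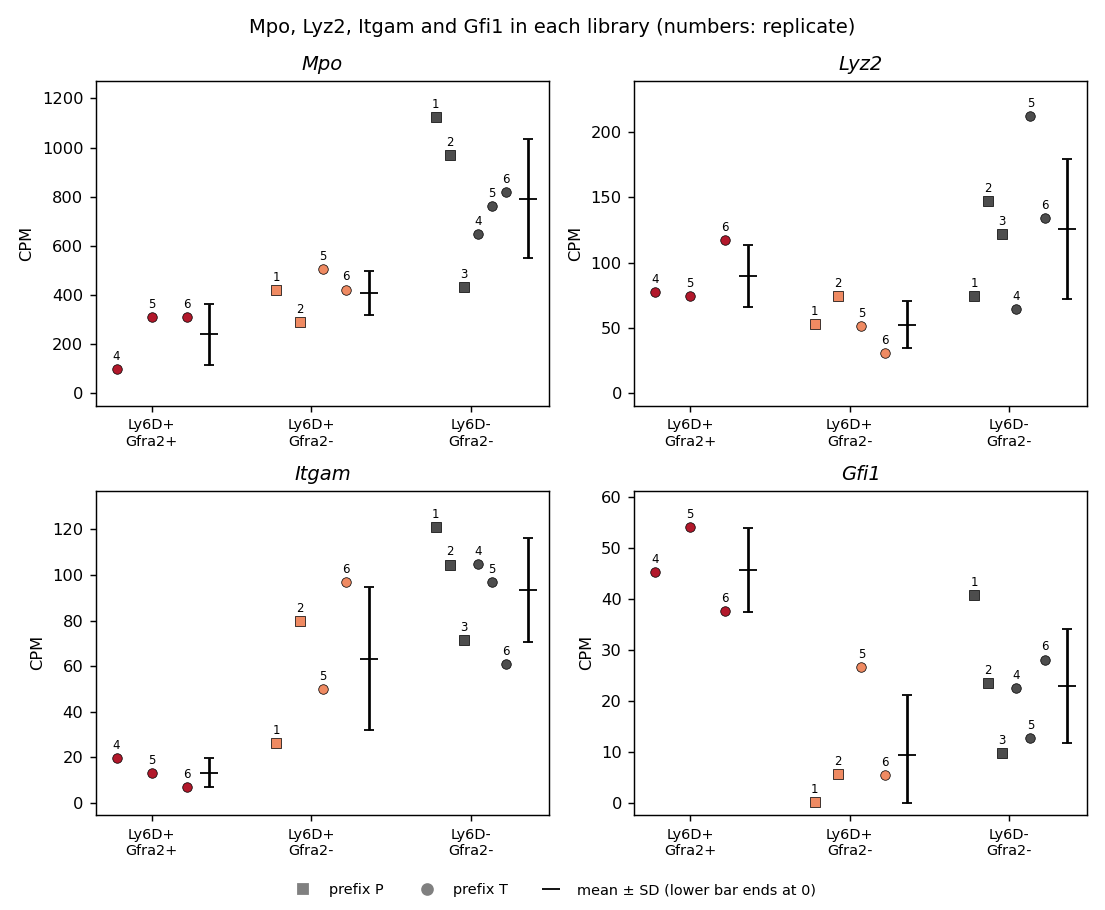
CPM of Mpo, Lyz2, Itgam and Gfi1 in each library, with the replicate number above each point, squares for prefix P, circles for prefix T and bars for the mean ± SD of a group. Mpo and Itgam were lower in all 3 Ly6D+Gfra2+ libraries than in all 6 Ly6D-Gfra2- libraries, whereas Gfi1 was higher in Ly6D+Gfra2+ than in all 4 Ly6D+Gfra2- libraries.

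The 3 serine proteases of azurophil granules averaged at most 9.16 CPM in any group and varied between libraries of 1 group. Elane, neutrophil elastase (NM_015779, chromosome 10, 79886312 to 79888216), had 0, 4.79 and 5.96 CPM in Ly6D+Gfra2+ replicates 4, 5 and 6. It had 4.61, 0.406, 0 and 0 CPM in Ly6D+Gfra2- replicates 1, 2, 5 and 6. Among the 6 Ly6D-Gfra2- libraries it was at 0 in replicates 1 and 4 and between 10.3 and 15.8 CPM in the other 4. Each group thus held libraries at 0 beside libraries well above it, and those 4 Ly6D-Gfra2- libraries were the highest of the 13. The log2 fold change of Ly6D+Gfra2- against Ly6D-Gfra2- was -3.96 (SE 2.20; edgeR adjusted p = 0.9995), and that of Ly6D+Gfra2+ was -0.64 (SE 1.93; edgeR adjusted p = 0.923). Without Ly6D-Gfra2- replicates 3 and 5 these were -4.30 and -0.29, and the Ly6D-Gfra2- mean was 7.21 ± 8.37 CPM (n = 4), against 9.16 ± 7.37 CPM (n = 6) with them. Single libraries moved the first to -6.18 (without Ly6D+Gfra2- replicate 1).

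Prtn3 encodes proteinase 3 and lies beside Elane, with 3137 bases between them (NM_011178, chromosome 10, 79879667 to 79883174). It was detected in 1 of 3 Ly6D+Gfra2+ libraries, replicate 4 at 6.64 CPM, in 2 of 4 Ly6D+Gfra2- libraries at 3.96 and 3.08 CPM, and in all 6 Ly6D-Gfra2- libraries at 1.07 to 4.09 CPM. Its group means of 2.21, 1.76 and 2.70 CPM were the closest of the granule proteases, and the ranges overlapped. Both neighbours had counts in 5 libraries, Elane alone in 3, Prtn3 alone in 4 and neither in 1. Such dropouts were not particular to the pair. Of 3343 genes with a mean between 1 and 10 CPM, 19.2% were at 0 in at least 5 libraries, as Elane was, and 27.1% in at least 4, as Prtn3 was.

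Ctsg, cathepsin G (NM_007800, chromosome 14, 56099885 to 56102574), followed the order of Mpo. Ly6D+Gfra2+ replicates 4, 5 and 6 had 0.115, 0 and 0.433 CPM, which is 5 counts in all. Ly6D+Gfra2- replicates 1, 2, 5 and 6 had 0, 3.10, 1.59 and 0.507 CPM, and Ly6D-Gfra2- libraries had 1.57 to 18.8 CPM with a median of 6.73 CPM. All Ly6D+Gfra2+ libraries lay below all Ly6D-Gfra2- libraries. The log2 fold change between them was -4.40 (SE 1.77; edgeR unadjusted p = 0.0240, adjusted p = 0.247), and it did not pass. Within Ly6D-Gfra2-, Ctsg averaged 11.7 CPM in prefix P and 3.41 CPM in prefix T (n = 3 each). The libraries of highest level were thus those of prefix P. In prefix T alone the log2 fold change was -4.12 (edgeR adjusted p = 0.402).

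Itgam encodes CD11b, the alpha chain of the integrin Mac-1 on granulocytes, monocytes and macrophages (NM_001082960, chromosome 7, 128062640 to 128118491). It had 19.7, 13.04 and 6.83 CPM in Ly6D+Gfra2+ replicates 4, 5 and 6, and 26.2, 79.6, 50.03 and 97.0 CPM in Ly6D+Gfra2- replicates 1, 2, 5 and 6. In the 6 Ly6D-Gfra2- libraries it ran from 61.0 CPM over a median of 100.9 CPM to 121 CPM. The Ly6D+Gfra2+ libraries were the 3 lowest of the 13, and the other groups overlapped each other.

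Itgam fell in Ly6D+Gfra2+ against Ly6D-Gfra2- cells, by 2.87 on the log2 scale (SE 0.54; edgeR adjusted p = 0.0157). Group means were 13.2 ± 6.44 CPM (SD, n = 3) and 93.3 ± 22.7 CPM (n = 6). Against Ly6D+Gfra2-, at 63.2 ± 31.4 CPM (n = 4), the log2 fold change was -2.30 (SE 0.53) and missed the threshold with edgeR (adjusted p = 0.0711). DESeq2 called it (-2.29, adjusted p = 0.00114), and edgeR did so without a filter on low counts (adjusted p = 0.0179), with no prefix term (0.0423) and without Ly6D+Gfra2+ replicate 4 (0.0472) or Ly6D+Gfra2- replicate 1 (0.0381). Ly6D+Gfra2- against Ly6D-Gfra2- gave -0.57 (SE 0.41; edgeR adjusted p = 0.9995), which became -0.28 without Ly6D+Gfra2- replicate 1 and -0.87 without replicate 6. The call against Ly6D-Gfra2- was lost in prefix T alone (-2.74, edgeR adjusted p = 0.0664), with limma voom and those weights (adjusted p = 0.184), without Ly6D-Gfra2- replicate 4 (0.0508) and without replicates 3 and 5 together (0.0601). Itgb2, the beta chain that pairs with CD11b, averaged 44.8, 87.6 and 76.6 CPM in Ly6D+Gfra2+, Ly6D+Gfra2- and Ly6D-Gfra2- cells, with overlapping ranges.

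Ms4a3, a membrane protein of granulocyte and monocyte progenitors (NM_133246, chromosome 19, 11629499 to 11640851), had no count in any Ly6D+Gfra2+ or Ly6D+Gfra2- library. In Ly6D-Gfra2- it had 25, 3 and 17 counts in replicates 3, 5 and 6, which is 1.22, 0.248 and 2.21 CPM, and none in replicates 1, 2 and 4. It did not pass the filter on low counts and was not tested. Its level in Ly6D-Gfra2- was 4.86-fold that of 3 counts over the Ly6D+Gfra2+ libraries together and 10.3-fold that of 3 counts over the Ly6D+Gfra2- libraries. These ratios allow for counting error of the zeros only and take the 45 counts of Ly6D-Gfra2- as exact. They were 2.89-fold and 6.11-fold without replicate 3, and 3.34-fold and 7.06-fold without replicate 6. Without both replicates 3 and 5, which stood apart in Ly6d or in neutrophil markers, its counts came from replicate 6 alone.

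**Figure D3:**
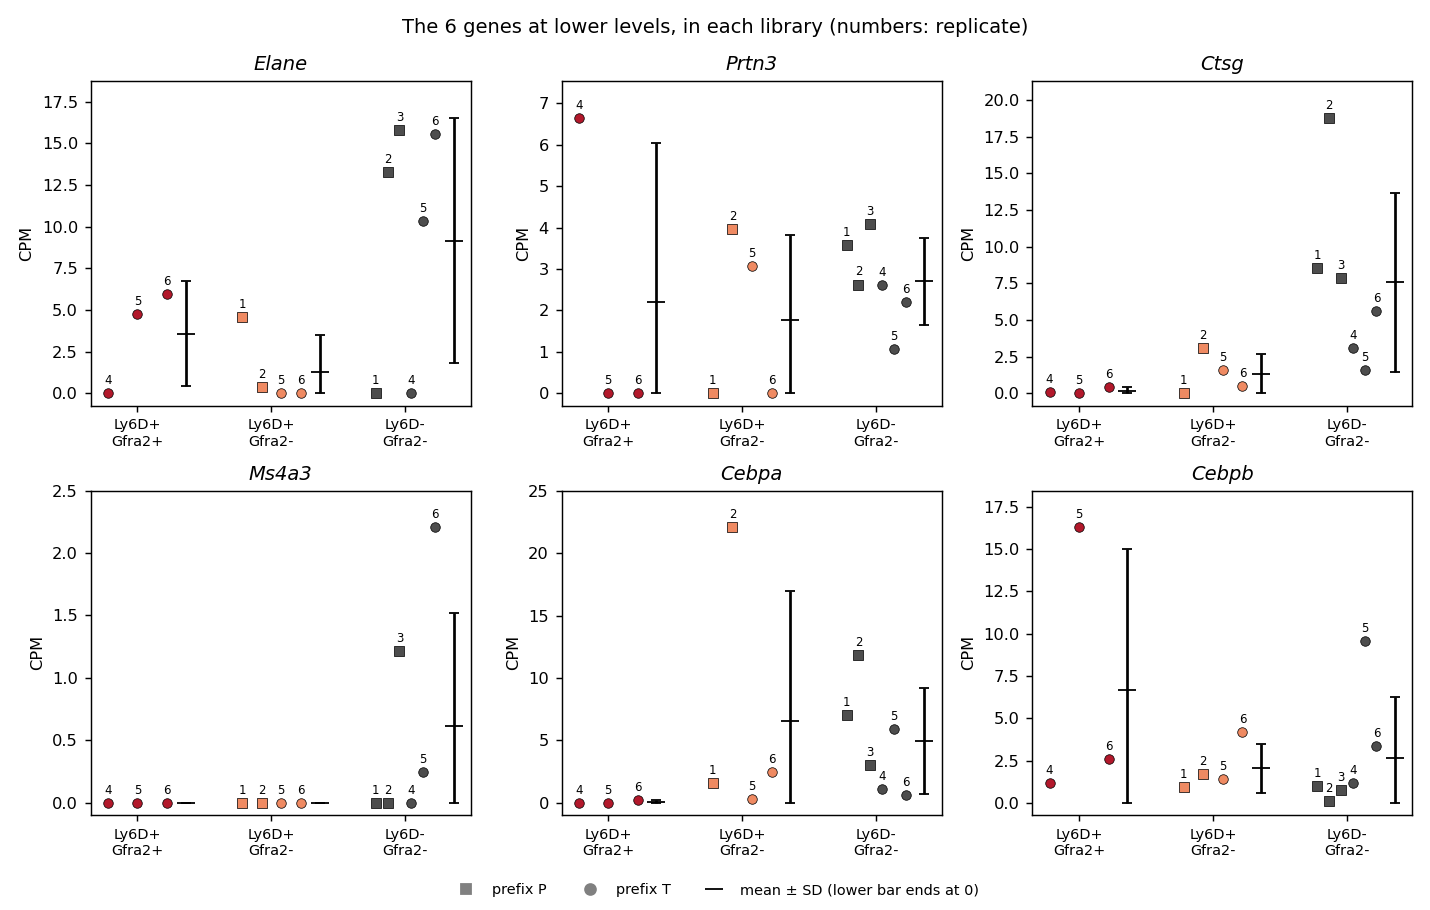
CPM of the 6 genes at lower levels in each library, with the replicate number above each point, squares for prefix P, circles for prefix T and bars for the mean ± SD of a group. Ctsg and Cebpa were at or below 0.433 CPM in all 3 Ly6D+Gfra2+ libraries, and Elane and Prtn3 mixed zeros and positive values.

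Cebpa encodes C/EBP alpha, the factor that granulocyte and monocyte progenitors require (NM_001287515, chromosome 7, 35119293 to 35121928). It was at 0, 0 and 0.217 CPM in Ly6D+Gfra2+ replicates 4, 5 and 6, which is 2 counts. It had 1.56, 22.1, 0.280 and 2.44 CPM in Ly6D+Gfra2- replicates 1, 2, 5 and 6 and 0.649 to 11.8 CPM, with a median of 4.48 CPM, in Ly6D-Gfra2- libraries. All 10 libraries without Gfra2 lay above all 3 with it, though the nearest pair, 0.280 and 0.217 CPM, were 3 and 2 counts. Ly6D+Gfra2- replicate 2 held 435 of the 486 counts of its group. Set against the 2 counts, the summed level in Ly6D+Gfra2- was 115 times as high (exact 95% counting interval 31.6 to 951), or 18.7 times (4.91 to 158) without replicate 2, and that in Ly6D-Gfra2- 78.5 times (21.6 to 650). Across replicates the difference did not pass, with edgeR adjusted p = 0.297 against Ly6D+Gfra2- and 0.218 against Ly6D-Gfra2-. Between Ly6D+Gfra2- and Ly6D-Gfra2- the log2 fold change was -0.05 (SE 1.16), and its sign turned under 5 of the alternatives other than single libraries left out.

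Cebpb encodes C/EBP beta, used by monocytes and in emergency granulopoiesis (NM_001287738, chromosome 2, 167688915 to 167690432). It had 1.15, 16.3 and 2.60 CPM in Ly6D+Gfra2+ replicates 4, 5 and 6, 0.909 to 4.16 CPM in Ly6D+Gfra2- libraries and 0.134 to 9.59 CPM in Ly6D-Gfra2- libraries. The groups overlapped throughout, with 1 high library in Ly6D+Gfra2+ and 1, replicate 5, in Ly6D-Gfra2-. The log2 fold changes were within 0.81 of 0 in all 3 comparisons with SEs of 1.14 to 1.54, so no direction could be read at this spread.

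Gfi1 encodes a zinc-finger repressor of neutrophil and lymphoid development (NM_010278, chromosome 5, 107716655 to 107725805). It had 45.4, 54.1 and 37.7 CPM in Ly6D+Gfra2+ replicates 4, 5 and 6. In Ly6D+Gfra2- replicates 1, 2, 5 and 6 it had 0.195, 5.58, 26.6 and 5.38 CPM, and in Ly6D-Gfra2- libraries 9.78 to 40.8 CPM with a median of 23.0 CPM. Its order was the opposite of that of Itgam between the Ly6D+ groups, since every Ly6D+Gfra2+ library lay above every Ly6D+Gfra2- library. The means were 45.71 ± 8.198 CPM (SD, n = 3), 9.44 ± 11.7 CPM (n = 4) and 22.9 ± 11.2 CPM (n = 6). Ly6D+Gfra2+ against Ly6D+Gfra2- gave a log2 fold change of 2.12 (SE 0.94; edgeR unadjusted p = 0.0388, adjusted p = 0.349) and against Ly6D-Gfra2- 0.51 (SE 1.01; edgeR adjusted p = 0.874; 0.08 without Ly6D-Gfra2- replicate 5 and 0.93 without Ly6D+Gfra2- replicate 5). Neither passed. Without Ly6D+Gfra2- replicate 5 the first was 3.55 (edgeR adjusted p = 0.229), over 1.5 times as large. Ly6D+Gfra2- against Ly6D-Gfra2- was -1.61 (SE 0.88; edgeR adjusted p = 0.9995), with -0.40 in prefix T and -3.08 in prefix P, and with -0.97 without Ly6D+Gfra2- replicate 1 and -2.62 without replicate 5.

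Of the 9 tested genes, edgeR called 2 lower in Ly6D+Gfra2+ against Ly6D-Gfra2-, Mpo and Itgam, beside 0.464% of all 12722 genes called lower and 1.39% called in either direction. DESeq2 called the same 2 genes, beside 6.2% of all genes. Cebpa, Ctsg, Itgam and Mpo lay lower with no overlap of the libraries, against 6.19% of all genes. Ctsg needed its Ly6D-Gfra2- libraries, where it was highest, to pass the filter on low counts. Cebpa passed that filter only through libraries of the groups without Gfra2, where it was higher. The separations of Ctsg and Cebpa are thus no independent support. The median log2 fold change over the 9 was -0.64, against 0.01 over all genes, and 6 of 9 were negative, against 6286 of all 12722. In Ly6D+Gfra2+ against Ly6D+Gfra2-, edgeR called none of the 9 and 0.409% of all genes, while DESeq2 called Itgam and 4.28% of all genes. There Cebpa and Itgam were lower without overlap (5.71% of all genes) and Gfi1 was higher without overlap (4%). The limit set by the filter holds for Cebpa in this comparison too. The median was 0.62, against 0.03 over all genes, and 4 of 9 were negative, against 6225 of all 12722.

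In Ly6D+Gfra2- against Ly6D-Gfra2-, edgeR called none of the 9 genes and 0 of 12722 in all, where 599 genes (4.71%) had an unadjusted p under 0.05, and DESeq2 called 20 genes (0.157%) and none of the 9. Mpo and Lyz2 had an unadjusted p under 0.05 and were lower, against 2.04% of all genes. No gene of the 10 separated these groups without overlap (0.951% of all genes lay lower so), whereas without Ly6D-Gfra2- replicate 3 Mpo did (1.52%). The median was -0.96, against -0.01 over all genes, and 8 of 9 were negative, against 6415 of all 12722. The 8 include Cebpa at -0.05, whose sign turned under 9 of 26 alternatives. The 9 had passed the filter on low counts, which removed Ms4a3. The 3 comparisons share libraries and are not independent. A test of whether the difference between Ly6D+Gfra2- and Ly6D-Gfra2- depended on the prefix called 0 of 12140 genes (edgeR; 872 with an unadjusted p under 0.05), and the smallest adjusted p among the 9 was 0.699, for Elane. Other tools were not run for it.

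**Figure D4:**
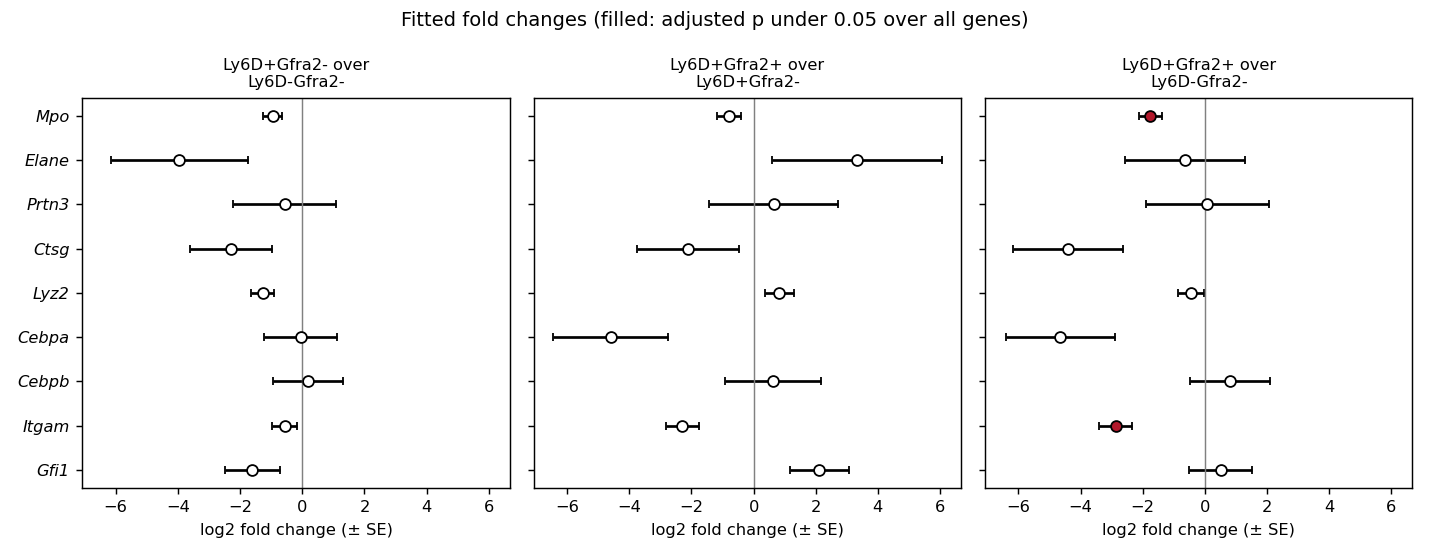
Fitted log2 fold changes (points) with their SE (bars) of the 9 tested genes in the 3 comparisons, filled where the edgeR adjusted p over all genes was under 0.05. The filled points are Mpo at -1.75 and Itgam at -2.87 in Ly6D+Gfra2+ over Ly6D-Gfra2-.

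Of 17 other granule and promyelocyte genes, 12 were tested and none was called in any comparison. Their median log2 fold change was 0.30 in Ly6D+Gfra2+ against Ly6D+Gfra2-, 0.21 in Ly6D+Gfra2+ against Ly6D-Gfra2- and -0.18 in Ly6D+Gfra2- against Ly6D-Gfra2-. Srgn, the proteoglycan that packs granule proteins and is also made by lymphocytes, stood at 478.5 ± 113.6 CPM (SD, n = 3) in Ly6D+Gfra2+ libraries, against 323 ± 34.6 CPM (n = 6) in Ly6D-Gfra2- libraries (log2 fold change 0.56, edgeR adjusted p = 0.211). Ctsc, the peptidase that activates granule proteases, averaged 55.7 ± 28.4 CPM (n = 3) against 24.1 ± 15.1 CPM (n = 6; edgeR adjusted p = 0.467). Both means stood higher in the group in which Mpo was lowest, with overlapping ranges. Other genes of the list went the other way near the floor. Cfd, Fcnb, Hp, Clec5a and Cd63 were at 0 in every Ly6D+Gfra2+ library and averaged 0.520 to 1.35 CPM in Ly6D-Gfra2- libraries.

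Of 15 other transcription factors of the myeloid lineages, 14 were tested and none was called. Their median log2 fold change was 0.46 in Ly6D+Gfra2+ against Ly6D-Gfra2- and 0.07 against Ly6D+Gfra2-. It was 0.19 in Ly6D+Gfra2- against Ly6D-Gfra2-. Jun had the smallest p of the list in Ly6D+Gfra2+ against Ly6D-Gfra2- and was higher there. It averaged 609 ± 132 CPM (n = 3) against 186 ± 122 CPM (n = 6; log2 fold change 1.15, edgeR adjusted p = 0.0526). Spi1, the gene of PU.1, averaged 104, 116 and 79.0 CPM in Ly6D+Gfra2+, Ly6D+Gfra2- and Ly6D-Gfra2- cells, with overlapping ranges. Irf8, a factor of monocytes, dendritic cells and B cells, averaged 180 ± 85.9 CPM (n = 3), 758.5 ± 136.5 CPM (n = 4) and 408 ± 283 CPM (n = 6) in these groups (edgeR adjusted p = 0.0986 for Ly6D+Gfra2+ against Ly6D+Gfra2-). Cebpe, the later granulocyte factor, was at 0 in every Ly6D+ library and reached at most 3.14 CPM in Ly6D-Gfra2-.

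Among 15 myeloid receptors and adhesion genes, 14 were tested and 1 was called, Fcer1g, which encodes the signalling gamma chain of Fc receptors. It fell in Ly6D+Gfra2+, at 13.7 ± 11.8 CPM (n = 3), against 133 ± 37.8 CPM (n = 4) in Ly6D+Gfra2- (log2 fold change -2.77, SE 0.56; edgeR adjusted p = 0.0428). In that comparison 0.409% of all genes were called. The call of Fcer1g was lost without 11 of the 13 libraries in turn (adjusted p 0.00483 to 0.142). Of the 14, 11 were negative in that comparison, with a median of -1.30, and 11 against Ly6D-Gfra2-, with a median of -0.76. Over all 12722 genes, 6225 and 6286 were negative. Csf2rb went the other way, at 204 ± 182 CPM (n = 3) in Ly6D+Gfra2+ against 85.8 ± 26.2 CPM (n = 4) in Ly6D+Gfra2- (edgeR adjusted p = 0.247). Itgax, the alpha chain CD11c, averaged 2.27 ± 2.32 CPM (n = 3), 30.4 ± 16.9 CPM (n = 4) and 20.03 ± 12.6 CPM (n = 6) in Ly6D+Gfra2+, Ly6D+Gfra2- and Ly6D-Gfra2- cells. Csf3r, the receptor for G-CSF, averaged 8.93, 20.7 and 69.3 CPM and Csf1r, the receptor for M-CSF, 14.7, 21.6 and 59.0 CPM in the same groups. Their fold changes did not pass with edgeR.

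Markers of mature cells moved in part with these genes. The 14 mature neutrophil markers summed to 0 to 60.0 CPM in Ly6D+Gfra2+ libraries, 0.260 to 11.7 CPM in Ly6D+Gfra2- libraries and 4.14 to 600.8 CPM in Ly6D-Gfra2- libraries, or to at most 39.6 CPM there without replicate 5. Of the 14, 5 were tested, and S100a9 was called lower in Ly6D+Gfra2+ against Ly6D-Gfra2- (0.0382 against 33.3 CPM, edgeR adjusted p = 0.0417), with 177 CPM in replicate 5 and 18.0 CPM in the next highest library. Without replicate 5 its adjusted p was 0.257, and the call was lost without 9 of the 13 libraries in turn (adjusted p 0.0173 to 0.257). S100a9 passed the filter on low counts only through Ly6D-Gfra2- libraries, the group in which it was high. Replicate 5 also held 113 CPM of Ngp and 35.6 CPM of Ltf, proteins of secondary granules, and Mmp8 was at 0 in every library but this one. Mpo in that library, at 762 CPM, was inside the range of its group, and Itgam, at 97.1 CPM, too. Lyz2, at 212 CPM, and Cebpb, at 9.59 CPM, were the highest of their group there. The log2 fold changes of Ly6D+Gfra2+ against Ly6D-Gfra2- without replicate 5 were -1.78 for Mpo (edgeR adjusted p = 0.0886) and -2.86 for Itgam (0.0497), about as large as with it.

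The 12 erythroid markers summed to 21.8 to 137.6 CPM in Ly6D+Gfra2+ libraries, 40.8 to 101.1 CPM in Ly6D+Gfra2- libraries and 65.4 to 515.8 CPM in Ly6D-Gfra2- libraries, where replicates 3 and 5 were highest. The 11 basophil, eosinophil and mast cell markers summed to 0 to 30.7, 0.747 to 17.3 and 6.31 to 48.6 CPM in these groups. The 16 monocyte and macrophage markers summed to 589 to 802, 809 to 1170 and 583 to 1416 CPM, and 12 were tested with none called. Mature B cell markers summed to 635 to 915, 389 to 589 and 272 to 449 CPM, T and NK cell markers to 2.27 to 8.99, 6.85 to 37.8 and 5.57 to 27.0 CPM, and stroma and endothelium markers to 198 to 276.5, 219 to 331 and 188 to 251 CPM. Single genes carried several sums. H2-Ob, an MHC class II chain, averaged 679.6, 463 and 381 CPM of the B cell sum while Ms4a1 was at 0 throughout, and Pecam1, also made by blood progenitors, averaged 210.3, 243 and 204 CPM of the stroma sum. Mpeg1 averaged 372, 750 and 672 CPM of the monocyte sum, in which Cd14 and C1qa were at 0 in all libraries. Other genes of that list had their highest mean in Ly6D+Gfra2+. Fn1 averaged 51.6, 3.23 and 20.2 CPM and F13a1 22.8, 4.175 and 13.03 CPM in the same order. Within Ly6D+Gfra2+ they ran from 0 to 120.6 and from 0 to 68.15 CPM. Of the 12 tested monocyte genes, 5 were negative in Ly6D+Gfra2+ against Ly6D+Gfra2- and 7 against Ly6D-Gfra2-. The part of these cells in the levels of the 10 genes was not tested.

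**Figure D5:**
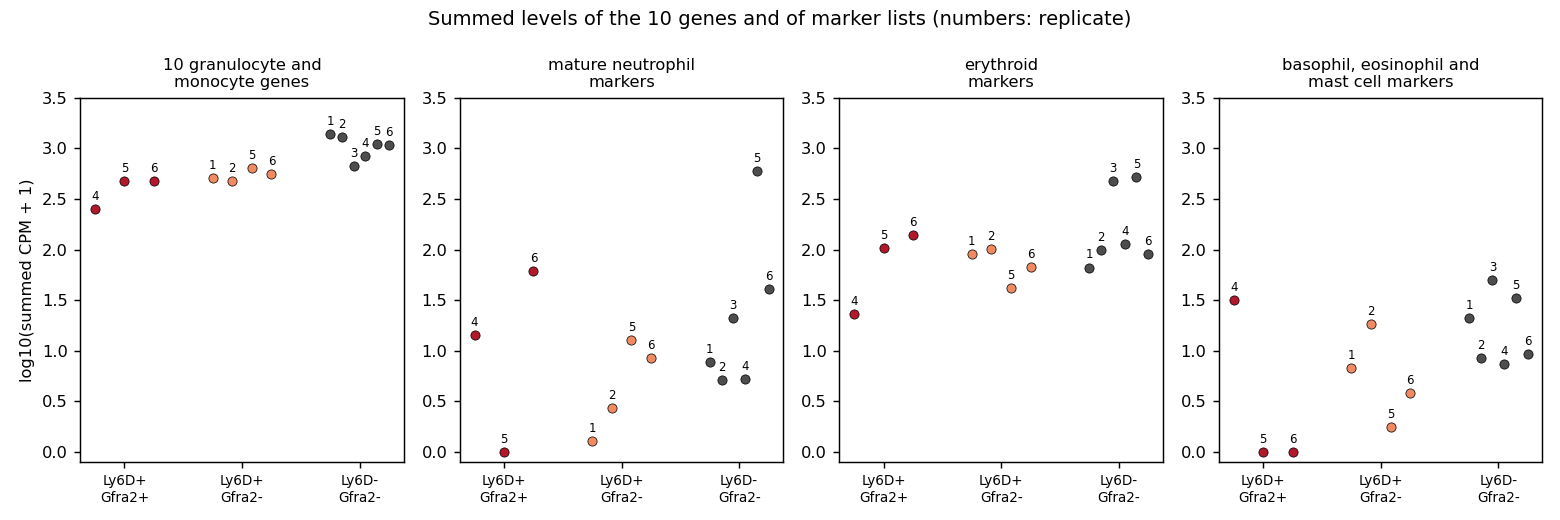
Summed level per library, as log10(summed CPM + 1), of the 10 genes and of 3 marker lists, with the replicate number above each point. Ly6D-Gfra2- replicate 5 stands out in mature neutrophil markers (600.8 CPM). Its sum of the 10 genes (1113 CPM) lay within the 668 to 1381 CPM of its group and was mostly Mpo (762 CPM).

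Among 10385 genes that averaged 5 CPM or more, the 5 whose log2(CPM + 1) was most like the mean z score of Mpo, Elane, Prtn3 and Ctsg over the 13 libraries were Lemd2 (Pearson r = 0.90), Ap3s2 (0.87), Il10rb (0.86), Ptk7 (0.85) and Nagk (0.84). The r describes libraries that share groups and prefixes, and the genes were picked for it. Ap3s2 encodes a subunit of the adaptor complex AP-3, and it averaged 35.7, 50.9 and 104.5 CPM in Ly6D+Gfra2+, Ly6D+Gfra2- and Ly6D-Gfra2- cells. Il10rb, a subunit of the interleukin-10 receptor, averaged 21.2, 36.5 and 62.7 CPM. Ptk7, a receptor-like protein of Wnt signalling, averaged 0.153, 0.838 and 14.4 CPM. Lemd2, a protein of the inner nuclear membrane, averaged 11.1, 18.9 and 35.99 CPM, and Nagk, the kinase of N-acetylglucosamine, 2.22, 2.48 and 11.1 CPM.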

How the data were processed

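RNA of 13 libraries was sequenced. The authors deposited 1 table per library of raw counts per RefSeq identifier, per the file headers. The submitters' processing notes name FastQC, HISAT, TopHat, HOMER, DESeq and mm10, without role or version; annotation, counting strand and multiply mapped reads are not stated. Of 24072 identifiers, 23811 were named from RefSeq (GRCm38.p6), 148 from GENCODE M21 and 113 not at all. Groups and replicate numbers came from the sample titles.

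Counts were tested with edgeR 4.0.16 (R 4.3.3): TMM, filterByExpr (minimum count 10, minimum total 15; 12722 genes), 1 quasi-likelihood fit of all libraries with terms for group and prefix, two-sided, Benjamini-Hochberg over all genes, called under 0.05. Totals ran from 6892728 to 23705975 counts. Alternatives were DESeq2 1.42.0, limma 3.58.1 voom with sample quality weights, other size factors, filters, terms and subsets of libraries. The code was tested on simulated data. Counting intervals are exact, at 95%, and cover counting error only.

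The members, lists, tests and alternatives were chosen with earlier results of these data known. Named genes are the members, per list and comparison up to 3 with the smallest p, of which some are printed, and the 5 most alike. Spi1, Cebpe, Itgb2, Ngp, Ltf and Mmp8 were added for their roles after their values were seen. Cfd, Fcnb, Hp, Clec5a, Cd63 and Mgst1 were added for their levels, also after these were seen.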

Additional observations from a re-analysis of the deposited data

Results flagged for a closer look

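In 3 of 20 combinations of gene and group, 1 library lay far from the others by Dixon's criterion at 95%. Normally distributed values meet it in about 1 of 20, but CPM near the floor need not be so distributed. The criterion was not applied to Ly6D+Gfra2+, with its 3 libraries. Ms4a3, at 0 throughout Ly6D+Gfra2-, could not meet it there. Ly6D+Gfra2- replicate 1 had 4.61 CPM of Elane, the highest of 4, with the other 3 at or below 0.406 CPM. Ly6D+Gfra2- replicate 2 had 22.1 CPM of Cebpa, with the other 3 at or below 2.44 CPM. Ly6D-Gfra2- replicate 5, the library with the neutrophil markers, had 9.59 CPM of Cebpb, with the other 5 at or below 3.37 CPM.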

How the results depend on the processing

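Of 659 values of 27 fold changes under alternatives, 611 kept their direction and side of the threshold, 12 lost the call (Mpo and Itgam in Ly6D+Gfra2+ against Ly6D-Gfra2-, given above), 5 gained it (Itgam against Ly6D+Gfra2-) and 31 turned sign, all of genes that were not called. The causes were not tested.

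In Ly6D+Gfra2- against Ly6D-Gfra2-, Cebpa (-0.05) became 0.48 with limma voom (always with sample quality weights), 0.42 with no prefix term, 0.48 without Ly6D-Gfra2- replicates 3 and 5, 0.70 in prefix P and 0.33 there without replicate 3, and ran from -1.37 to 0.67 with single libraries left out. Cebpb (0.19) became -0.38 with no prefix term and -0.76 in prefix T, and ran from -0.23 to 0.71. In Ly6D+Gfra2+ against Ly6D+Gfra2-, Prtn3 (0.65) became -0.45 with voom and -3.27 with a replicate block and ran from -7.19 to 2.37, and Cebpb (0.62) became -0.24 with voom and ran from -1.21 to 1.10. In Ly6D+Gfra2+ against Ly6D-Gfra2-, Prtn3 (0.08) became -2.32 with voom, -0.14 with library size alone, -0.29 with no prefix term, -4.46 with the block and -0.12 without replicates 3 and 5, and ran from -7.76 to 0.66. Cebpb (0.81) became -0.22 with voom and ran from -1.02 to 1.74, Elane (-0.64) ran from -1.22 to 0.28, and Gfi1 (0.51) became -0.0034 without replicates 3 and 5.

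Counts of all called genes moved more. In Ly6D+Gfra2- against Ly6D-Gfra2- the count of 0 became 20 with DESeq2, 1 with voom, 9 without a filter, 8 with the replicate block, 1 in prefix T, 6 without replicates 3 and 5, and 0 to 16 with single libraries left out (16 without Ly6D-Gfra2- replicate 3). In Ly6D+Gfra2+ against Ly6D+Gfra2- the count of 52 became 545, 25, 164, 25, 9 and 23 under these settings, 103 with no prefix term, 8 with only these groups, and 12 to 184 with single libraries left out (12 without Ly6D+Gfra2- replicate 5, 184 without Ly6D+Gfra2+ replicate 6); leaving out any library but Ly6D+Gfra2- replicate 1 or Ly6D-Gfra2- replicate 3 moved it over 1.5 times. With library size alone it was 48, 15 higher and 33 lower, against 26 and 26. In Ly6D+Gfra2+ against Ly6D-Gfra2- the count of 177 became 789, 109, 318, 92, 62 and 57, 72 with only these groups, and 49 to 372 (372 without Ly6D+Gfra2+ replicate 6), moving over 1.5 times also without Ly6D+Gfra2+ replicate 5 (115), Ly6D+Gfra2- replicate 6 (106) and Ly6D-Gfra2- replicates 1 (90), 4 (55), 5 (49) and 6 (52). With library size alone it was 111, 45 higher and 66 lower, against 118 and 59.

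None of 9 same-numbered pairs had deviations correlated above 0.1 (-0.012 to 0.047). With so few libraries per group and prefix, this cannot decide whether the samples were paired. In prefix T the replicate numbers are suffixes of the titles that recur across groups, and their meaning is not stated. With the replicate block Mpo and Itgam kept their calls in Ly6D+Gfra2+ against Ly6D-Gfra2-. Mpo in Ly6D+Gfra2- against Ly6D-Gfra2- was then at -1.295 (SE 0.24; edgeR adjusted p = 0.0921), still not called. The spread between libraries of 1 group limits the calls of the granule proteases, where Elane had 0 counts in 5 libraries and up to 325 in another. Values without single libraries for S100a9, Fcer1g and the counting ratios of Ms4a3 and Cebpa were chosen after seeing the data.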
